A study of Mus musculus with 35 samples.

Results

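Brown adipose tissue of control mice was compared between a high fat and a normal diet in 10 RNA sequencing libraries, 5 of each diet, out of 35 in the series. The libraries were chosen by their labels: control genotype, second experiment, all from female mice aged 21 weeks. The high fat group had free access to a diet with 45 kJ% fat for 14 weeks, and the other group had free access to a normal diet for as long. Suv420h double knockout mice, 5 libraries per diet and of the same sex and age, entered the same model and served for comparison only. The sources used here do not give the strain, the alleles of the controls or whether replicates were separate animals. The p-values thus describe scatter among these libraries, possibly technical scatter, and no batch is labelled.

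Brown adipose tissue burns fat and glucose to make heat. Its cells import fatty acids, make others from sugar (lipogenesis), store them in droplets and oxidise them in mitochondria, where the uncoupling protein Ucp1 releases the energy as heat. Lipogenesis and cholesterol synthesis are driven in many tissues by SREBP transcription factors, and polyunsaturated fatty acids and sterols restrain them. Fatty acid oxidation genes are targets of the fatty acid receptor PPAR-alpha. The main depot lies between the shoulder blades, close to skeletal muscle, so muscle transcripts can enter a dissected sample.

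Total counts ranged from 2398807 to 7693388 on normal diet and from 4675987 to 6434466 on high fat diet. Levels are CPM, counts scaled to a common TMM-adjusted library size, and each count is 1 sequenced tag from a transcript's 3′ end. Fold changes are log2 values, high fat over normal diet, given with 1 SE. That SE was derived as the absolute fold change divided by the square root of the F statistic of the edgeR quasi-likelihood test. Genes with adjusted p under 0.05 in that test, over all genes tested, are termed called. All 12 markers on a brown adipocyte list were detected in both diets, with summed levels from 16110 to 35110 CPM on normal diet and from 25980 to 53010 CPM on high fat diet. In bulk tissue, fewer cells of a type and less RNA per cell cannot be told apart.

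Skeletal muscle transcripts separated the libraries and were measured first. The muscle score was the mean log2 CPM of Acta1, the skeletal actin, Ckm, the muscle creatine kinase, Mylpf, a fast myosin light chain, Tnnt3, a fast troponin, and Myh4, a fast myosin heavy chain. It was 3.27, 11.4, 9.12, 9.97 and 7.20 in normal diet replicates 1 to 5, and -0.74, -0.43, 8.73, -1.26 and -0.64 in high fat replicates 1 to 5. Normal diet replicate 1 was the lowest of its group, and high fat replicate 3 stood with the normal diet libraries. The means were 8.20 ± 3.15 and 1.13 ± 4.26 (SD, n = 5 each), a difference of -7.07 with an exact two-sided permutation p of 0.0238, where the smallest possible p was 0.00794. The muscle score difference between diets in control mice was -6.26 to -8.97 with any 1 library left out, and its exact permutation p was 0.0556 or 0.0635 without any 1 of normal diet replicates 2, 3 and 4 or of high fat replicates 1, 2, 4 and 5. The 5 genes together took from 0.00611 to 2.30% of all counts on normal diet and from 0.000181 to 0.283% on high fat diet. Acta1 reached 12770 CPM in normal diet replicate 2 and 1219 CPM in high fat replicate 3, and lay between 0.957 and 2.03 CPM in the other 4 high fat libraries.

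**Figure D1:**
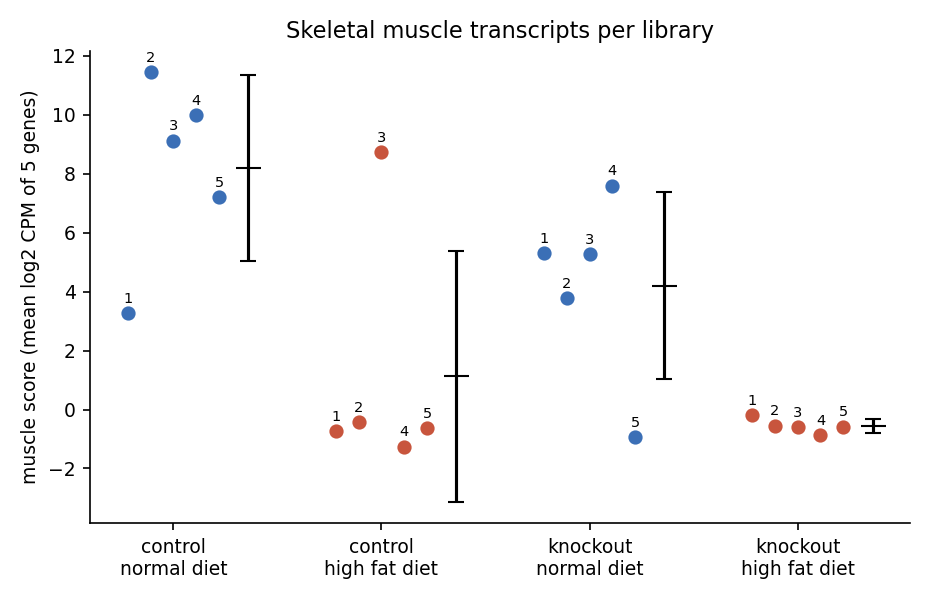
Muscle score of each library (mean log2 CPM of the 5 score genes, vertical axis) in the 4 groups of the model; points are libraries with their replicate numbers, and the bar beside them is the mean with 1 SD. In control mice 4 of 5 high fat libraries lie below every normal diet library, and high fat replicate 3 lies among them at 8.73.

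Diet was therefore fitted in 2 models, a model with the 4 groups alone and a model that also held the muscle score, and a fold change given without mention of the score is from the first. Between the 4 groups, which differ in genotype as well as diet, lay 59.2% of the variance of the score over the 20 libraries. This is not the share of diet alone. The score also differed between the diets within control mice, as given above, so score and diet share variation. Of 12082 genes tested, 96 were called between the diets (0.795%), 49 of them higher (0.406%) and 47 lower (0.389%) on high fat diet. With the score in the model 2 genes were called (0.0166%), Scd1 and Vat1l, both lower, and both were among the 96, so that every other called gene below lost its call with the score. With the score the count was 0 without normal diet replicate 1 or high fat replicate 3, and 11 without normal diet replicate 3. At an unadjusted p below 0.05 there were 1957 genes (16.2%) without and 878 (7.27%) with the score. The count of 96 varied with single libraries, from 21 without high fat replicate 2 and 31 without normal diet replicate 2 to 358 without normal diet replicate 3. Of the 96 genes themselves, 21 kept the call without high fat replicate 2, 28 without normal diet replicate 2, 33 without high fat replicate 1, 40 without normal diet replicate 4, 41 without high fat replicate 4, 59 without high fat replicate 5 and 83 to 95 without any 1 of the other 4. It was 34 without the 4 control libraries of score above 8, namely normal diet replicates 2, 3 and 4 and high fat replicate 3. Of the 96 genes, 95 were tested in that fit, and all of these kept their direction there, with 11 called.

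The smallest adjusted p belonged to Scd1, the desaturase that makes oleic acid from stearic acid (chromosome 19, 44394455 to 44407879, minus strand, GRCm38). Scd1 fell from 10490, 9983, 10850, 16340 and 15470 CPM in the normal diet libraries to 4015, 3069, 3882, 3773 and 3214 CPM in the high fat libraries. The groups lay far apart, and high fat replicate 3 and normal diet replicate 1 sat with their own diets. The fold change of Scd1 was -1.81 ± 0.24 SE (adjusted p = 5.05e-04), and -1.86 (adjusted p = 0.0353) with the muscle score. Without the score it was called in each of 10 fits with 1 library left out, with a highest adjusted p of 0.00448. With the score it was not called without normal diet replicate 1 or without high fat replicate 3, nor with voom or in the 10 control libraries alone. Vat1l, a gene related to a synaptic vesicle membrane protein (chromosome 8, 114205612 to 114374071), fell from 22.4 ± 11.4 to 6.76 ± 2.26 CPM, with fold changes of -1.74 (adjusted p = 0.0133) and, with the score, -2.42 (adjusted p = 0.0138). Its lowest normal diet value, 7.01 CPM in the muscle-rich replicate 2, lay within the high fat range of 4.30 to 9.54 CPM.

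Lipogenesis genes lay mostly lower on high fat diet, with Scd1 as the single called member. Of 21 genes tested, 20 had a negative fold change, with a median of -0.67 against -0.00 over all genes, and the median was -0.59 with the score in the model. At an unadjusted p below 0.05, 12 of the 21 were lower and 0 higher, against 991 lower and 966 higher of all 12082 genes tested. Fasn, the fatty acid synthase (chromosome 11, 120805846 to 120824547), measured 28310, 17250, 10390, 35400 and 19670 CPM in the normal diet libraries, and the high fat libraries had 11580, 8475, 15000, 12690 and 11820 CPM. Normal diet replicate 3 lay inside the high fat range, and the difference was not called (-0.90 ± 0.29 SE, adjusted p = 0.112). Acaca, which makes the malonyl-CoA that Fasn uses, was at 876 ± 288 and 490 ± 144 CPM (SD, n = 5 each; -0.84, adjusted p = 0.0806). Tecr, an enoyl reductase of very long chain fatty acid synthesis named after its values were seen, fell from 185 ± 45.0 to 67.9 ± 20.6 CPM (-1.45 ± 0.22 SE, adjusted p = 0.00207) with no overlap between the groups. Its fold change was -1.29 with the score (adjusted p = 0.123). Tecr was not on the lipogenesis list. Hacd1, a dehydratase of the same very long chain synthesis and also off that list, was called in the other direction (1.70 ± 0.26 SE, adjusted p = 0.00207).

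In cholesterol synthesis, 18 of 23 genes tested had a negative fold change, with a median of -0.29 and, with the score, of -0.39. Insig1, which holds SREBP precursors in the endoplasmic reticulum and is itself an SREBP target (chromosome 5, 28071363 to 28078662), was the called member. It measured 326, 269, 148, 692 and 486 CPM on normal diet and 110, 74.9, 119, 118 and 163 CPM on high fat diet. The ranges met because normal diet replicate 3 lay below high fat replicate 5. The fold change of Insig1 was -1.72 ± 0.38 SE (adjusted p = 0.0392) and -1.98 (adjusted p = 0.318) with the score. Among fits lacking 1 library it was called in 4 of 10, with a highest adjusted p of 0.151 without high fat replicate 2, and it also lost the call without normal diet replicates 2, 4 or 5 or high fat replicates 1 or 4. Hmgcs1, which makes the first committed sterol precursor (chromosome 13), went the other way without being called: its 5 high fat libraries, 925 to 1608 CPM, all lay above the normal diet range of 572 to 896 CPM (0.66 ± 0.19 SE, adjusted p = 0.0825). Nsdhl, a sterol dehydrogenase, had -0.88 (adjusted p = 0.116) and Acat2, an acetoacetyl-CoA thiolase, -0.68 (adjusted p = 0.112).

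The promoters of Insig1, Fasn and Hmgcs1 are shown because fold changes of different sign stood side by side in pathways known to share SREBP and NF-Y regulation. Only Insig1 was called among them, so the contrast of sign includes differences that were not called. Scd1 had no entry among the promoter sequences used here. Each holds 250 bases before and 50 after the RefSeq start (GRCm38.p6), 5′ to 3′ on the gene's strand. Capitals mark matches on either strand to CCAAT (the NF-Y box), CACGTG (an E-box) or TCACNCCAC (a sterol element core), and in Fasn a pair of CCAAT matches overlaps. The Insig1 window lies at chr5:28071162-28071461 (plus strand), that of Fasn at chr11:120824498-120824797 (minus strand) and that of Hmgcs1 at chr13:119690101-119690400 (plus strand).
Insig1: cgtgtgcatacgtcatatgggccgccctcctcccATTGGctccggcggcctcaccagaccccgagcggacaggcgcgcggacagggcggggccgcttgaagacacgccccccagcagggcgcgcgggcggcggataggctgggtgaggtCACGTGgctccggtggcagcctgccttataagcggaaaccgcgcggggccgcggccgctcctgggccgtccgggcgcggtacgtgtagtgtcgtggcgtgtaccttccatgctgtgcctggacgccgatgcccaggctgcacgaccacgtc
Fasn: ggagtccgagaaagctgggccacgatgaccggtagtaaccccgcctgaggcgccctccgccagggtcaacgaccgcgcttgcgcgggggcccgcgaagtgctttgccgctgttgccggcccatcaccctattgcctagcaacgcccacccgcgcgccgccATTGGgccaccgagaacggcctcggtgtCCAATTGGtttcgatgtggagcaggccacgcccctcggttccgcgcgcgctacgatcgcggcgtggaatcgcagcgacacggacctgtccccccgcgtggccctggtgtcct
Hmgcs1: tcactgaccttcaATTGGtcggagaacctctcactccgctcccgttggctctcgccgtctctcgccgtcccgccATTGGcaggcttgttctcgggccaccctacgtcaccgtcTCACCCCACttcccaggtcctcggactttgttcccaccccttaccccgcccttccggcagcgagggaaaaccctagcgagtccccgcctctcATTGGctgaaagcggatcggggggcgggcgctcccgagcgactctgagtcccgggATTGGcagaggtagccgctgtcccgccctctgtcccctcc
Insig1 had 1 CCAAT and 1 CACGTG match, Fasn 3 CCAAT matches, and Hmgcs1 4 CCAAT matches and 1 TCACNCCAC match. Of 32851 promoter windows of that length, 37.4% held CCAAT, 7.15% CACGTG and 1.24% TCACNCCAC. A match is a description of the letters and not of binding.

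**Figure D2:**
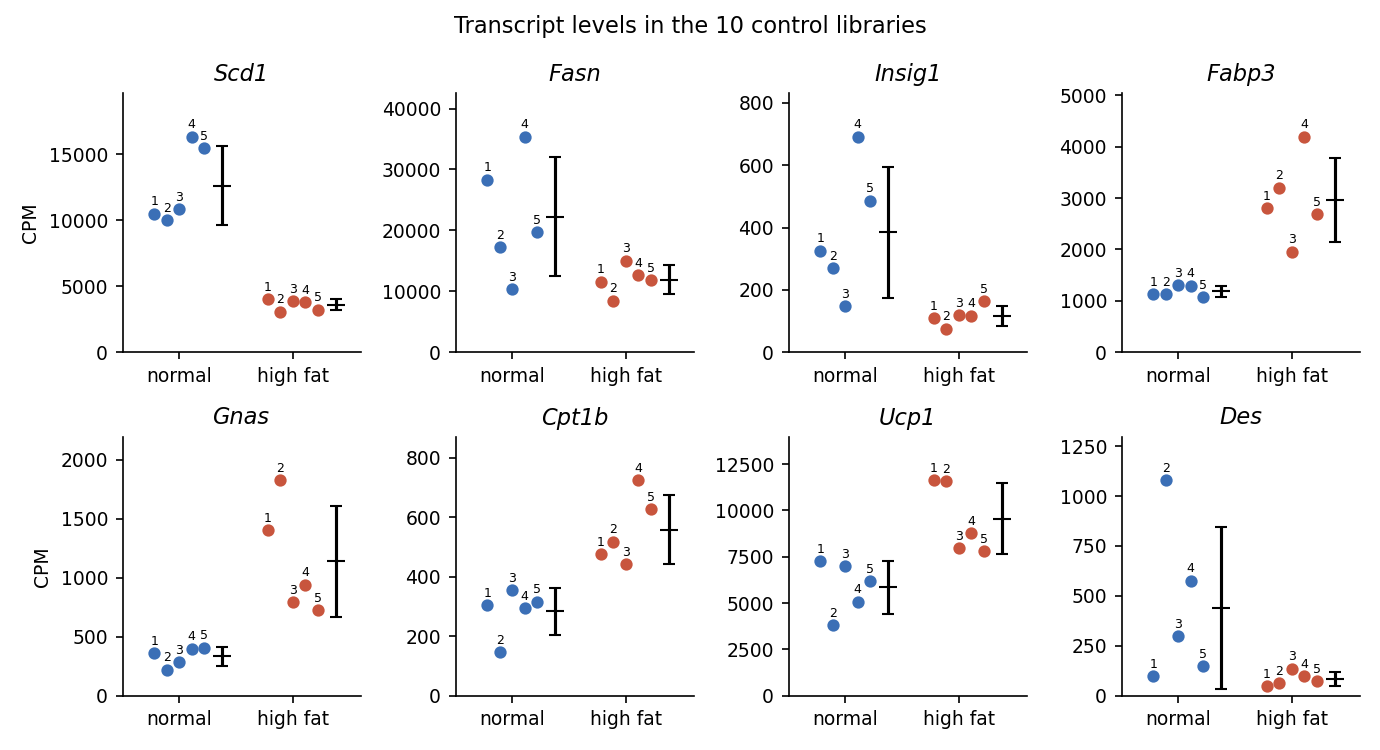
CPM (vertical axes, each from 0) of 8 genes in the 5 normal diet (blue) and 5 high fat (red) control libraries, numbered by replicate, with mean and 1 SD beside them. Scd1, Fabp3, Gnas, Cpt1b and Ucp1 show no overlap between diets, Fasn and Insig1 overlap through normal diet replicate 3, and Des, a muscle gene, is highest in normal diet replicates 2 and 4.

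In fatty acid uptake and binding, Fabp3 was the called gene. Fabp3, a fatty acid binding protein of oxidative tissue (chromosome 4, 130308595 to 130315463, overlapping Zcchc17 on the opposite strand), rose from 1131, 1124, 1303, 1293 and 1076 CPM to 2798, 3201, 1959, 4195 and 2687 CPM. High fat replicate 3 was the lowest of its group and still above all normal diet libraries. Its fold change was 1.32 ± 0.23 SE (adjusted p = 0.00679), and 1.13 (adjusted p = 0.431) with the score, and it was called in all 10 fits with 1 library left out. The entry Fabp3-ps1, a processed copy that can share its reads, was also called (1.53, adjusted p = 0.0179; not without normal diet replicate 2, with adjusted p = 0.0529, or high fat replicate 2), so the division of counts between them is uncertain. Cd36, the fatty acid translocase of the plasma membrane, was at 399 ± 79.4 and 644 ± 151 CPM without overlap but was not called (0.69, adjusted p = 0.0806). Slc27a1, a fatty acid transport protein, lay lower in all high fat libraries and was not called (-1.48, adjusted p = 0.0519; -0.80 with the score). Of 16 genes of uptake and binding, 11 had a positive fold change, and the median was 0.08.

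Among mitochondrial fatty acid oxidation genes 25 of 29 had a positive fold change, with a median of 0.45 and, with the score, of 0.34. Slc25a20 was the only called member of that list. Cpt1b and Ppara are given beside it but were on the list of thermogenesis and brown fat identity. Slc25a20, the carrier that moves acylcarnitines into mitochondria, rose from 195 ± 52.6 to 346 ± 56.4 CPM (0.82 ± 0.18 SE, adjusted p = 0.0334). Cpt1b, the muscle and brown fat form of the enzyme that makes acylcarnitines, rose from 283 ± 79.9 to 558 ± 116 CPM (0.98 ± 0.21 SE, adjusted p = 0.0278). Ppara, the fatty acid receptor, rose from 193 ± 44.3 to 340 ± 51.9 CPM (0.82 ± 0.18 SE, adjusted p = 0.0334). In all 3 genes the groups did not overlap. Their fold changes with the score were 0.59, 0.65 and 0.93, at adjusted p of 0.635, 0.635 and 0.355. With 1 library left out they were called in 6, 7 and 5 of 10 fits, with highest adjusted p of 0.117 for Slc25a20 without high fat replicate 2, 0.0669 for Cpt1b without high fat replicate 4 and 0.0815 for Ppara without high fat replicate 1. Hadhb, a subunit of the trifunctional beta-oxidation enzyme, had 1.09 (adjusted p = 0.0808), with high fat replicates 4 and 5 inside the normal diet range of 251 to 834 CPM. In peroxisomes, 14 of 19 genes were positive with a median of 0.09, and Acot8, a peroxisomal thioesterase, was above the normal diet range in all high fat libraries without being called (1.06, adjusted p = 0.0526).

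Heat production was represented by Ucp1 and its regulators. Of 31 genes of thermogenesis and brown fat identity, 23 had a positive fold change, with a median of 0.49 and, with the score, of 0.30. Cpt1b and Ppara, described above, were the called members, where 0.406% of all genes tested were called higher. Ucp1 (chromosome 8, 83290352 to 83298452) measured 7249, 3794, 7006, 5078 and 6167 CPM in the normal diet libraries, against 11640, 11580, 7960, 8780 and 7792 CPM in the high fat libraries. Every high fat library lay above every normal diet library, but the difference was not called (0.70 ± 0.21 SE, adjusted p = 0.0943; 0.52 with the score). Over all genes, 184 (1.52%) had all 5 high fat libraries above, and 124 (1.03%) had all below. Pparg, the master regulator of fat cells, was at 29.2 ± 13.1 and 62.6 ± 15.6 CPM (1.09 ± 0.29 SE, adjusted p = 0.0690), and its coactivator Ppargc1a had 0.71 (adjusted p = 0.393). Cidea, a lipid droplet protein typical of brown fat, had 0.02 (adjusted p = 0.978) and Dio2, which activates thyroid hormone, 0.05 (adjusted p = 0.974), and the sign of both flipped with the score in the model (-0.25 and -0.15). Lep, the satiety hormone leptin, was at 4.13 ± 2.49 and 8.68 ± 6.91 CPM (1.06, adjusted p = 0.603).

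In the respiratory chain, 67 of 76 nuclear-encoded genes had a positive fold change, with a median of 0.38 and, with the score, of 0.26. Of the 76 genes 3 were called, all higher, where 0.406% of all genes tested were called higher. Atp5o, a subunit of ATP synthase, rose from 996 ± 124 to 1787 ± 516 CPM (0.84 ± 0.18 SE, adjusted p = 0.0255). Atp5c1, another subunit, had 0.72 (adjusted p = 0.0334), and Ndufab1, an acyl carrier subunit of complex I, 0.69 (adjusted p = 0.0334). With the score, the values of Atp5o, Atp5c1 and Ndufab1 were 0.57, 0.56 and 0.48 (adjusted p = 0.653, 0.631 and 0.650), and all 3 lost the call without high fat replicate 2 (adjusted p = 0.101, 0.133 and 0.136). Atp5c1 and Ndufab1 each have 1 named pseudogene. Of 10 mitochondrially encoded transcripts, 9 were positive with a median of 0.49, and edgeR called 0. At an unadjusted p below 0.05, 6 of the 10 were higher, against 966 of all 12082 genes tested. Mitochondrially encoded genes took 11.9 to 18.3% of the counts on normal diet and 17.1 to 25.9% on high fat diet. The normal diet libraries with the lowest share, replicates 2 and 4 at 11.9 and 12.1%, were those with the highest muscle scores and the fewest counts, and the part of these in the result was not tested.

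Of 22 genes of pyruvate use and the citric acid cycle, 15 were positive, with a median of 0.29. Idh2, the mitochondrial isocitrate dehydrogenase, rose from 306 ± 31.1 to 555 ± 156 CPM (0.86 ± 0.20 SE, adjusted p = 0.0334; 0.63 with the score). Pcx, which makes oxaloacetate from pyruvate, lay at 578 ± 210 and 303 ± 87.3 CPM and was not called (-0.93, adjusted p = 0.0651). Dbt, a core subunit of the branched-chain keto acid dehydrogenase, rose from 118 ± 31.8 to 220 ± 70.8 CPM (0.90 ± 0.22 SE, adjusted p = 0.0454), with overlap through normal diet replicate 3. The highest adjusted p with 1 library left out was 0.101 for Idh2, without high fat replicate 2, and 0.162 for Dbt, without high fat replicate 1. Alas1, the first enzyme of haem synthesis, rose from 36.4 ± 5.63 to 82.7 ± 28.8 CPM (1.18 ± 0.26 SE, adjusted p = 0.0334; 1.44 with the score; adjusted p = 0.114 without high fat replicate 1), and was among genes named after their values were seen. So was Stoml2, a scaffold of the inner mitochondrial membrane, which rose from 31.7 ± 6.95 to 63.3 ± 8.34 CPM (0.99 ± 0.17 SE, adjusted p = 0.00563; 1.11 with the score) and was called in all 10 fits with 1 library left out.

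**Figure D3:**
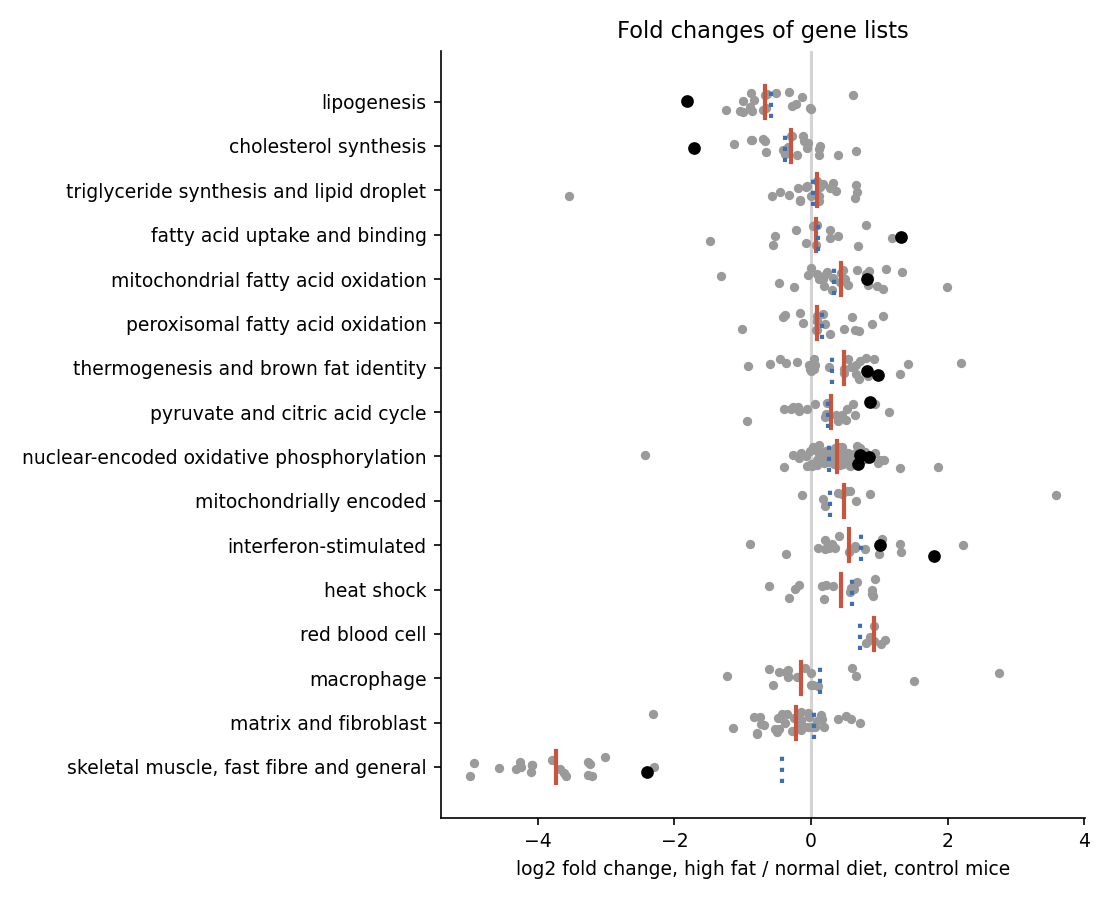
Fold changes (horizontal axis, log2, high fat over normal diet in control mice) of the tested members of 16 gene lists; grey points are members not called, black points called members, red bars the list median and dotted blue bars the median with the muscle score in the model. The lipogenesis medians lie to the left of 0 and those of oxidation and respiratory chain lists to the right in both models, whereas the muscle median moves from -3.73 to -0.42.

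Outside lipid metabolism, Gnas, which encodes the stimulatory G protein subunit that couples beta-adrenergic receptors to cyclic AMP (chromosome 2, 174284320 to 174346744), rose from 358, 222, 282, 399 and 408 CPM to 1405, 1828, 795, 941 and 723 CPM. The groups were well separated, and high fat replicates 1 and 2 were the highest. Its fold change was 1.77 ± 0.25 SE (adjusted p = 0.00108) and 1.49 (adjusted p = 0.126) with the score, and it was called with any 1 library left out. The locus is imprinted, has several transcripts and overlaps the antisense gene Nespas, and no source used here gives the strand setting of the counting. Of the 23 genes of insulin and beta-adrenergic signalling, 11 were positive, with a median of -0.06, or 0.10 with the score, and Gnas was the called member. Adcy3, an adenylyl cyclase, had 1.04 (adjusted p = 0.0651), and the receptor Adrb1 0.72 (adjusted p = 0.0972).

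Among genes induced by interferon, Ifi27l2a (chromosome 12, 103442167 to 103443680) rose from 172, 130, 60.2, 95.8 and 133 CPM to 370, 630, 390, 391 and 287 CPM. The lowest high fat library lay above the highest normal diet library, and the gene was called with any 1 library left out (1.80 ± 0.30 SE, adjusted p = 0.00563; 1.71 with the score, adjusted p = 0.143). The related Ifi27 rose as well (1.01 ± 0.23 SE, adjusted p = 0.0334; 0.74 with the score, adjusted p = 0.625), at 1264 ± 478 and 2553 ± 627 CPM, but lost the call without high fat replicate 2 (adjusted p = 0.125). Of 21 interferon-stimulated genes tested, 19 had a positive fold change with a median of 0.55, or 0.73 with the score, and Isg15, a ubiquitin-like modifier, had 1.30 without being called (adjusted p = 0.113).

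The other called genes named by size of change were Hacd1, S100b and Slc41a2 among those that rose. Hacd1, a dehydratase of very long chain fatty acid synthesis, rose from 11.8 ± 2.29 to 38.8 ± 8.62 CPM (1.70 ± 0.26 SE, adjusted p = 0.00207; 1.46 with the score, adjusted p = 0.219). S100b, a calcium-binding protein of fat and glial cells that overlaps Dip2a on the opposite strand, rose from 205 ± 99.9 to 542 ± 121 CPM (1.41 ± 0.29 SE, adjusted p = 0.0236; 1.07 with the score, adjusted p = 0.570). Slc41a2, which transports magnesium, went up from 6.30 ± 4.07 to 17.2 ± 2.87 CPM (1.50 ± 0.35 SE, adjusted p = 0.0356; 1.44 with the score, adjusted p = 0.570). With 1 library left out, Hacd1 was called in all 10 fits, S100b in 9 (adjusted p = 0.0502 without high fat replicate 4) and Slc41a2 in 4 (highest adjusted p = 0.0984, without high fat replicate 1). Ryr2, the calcium release channel known from heart, rose from 0.933 ± 1.09 to 9.02 ± 1.19 CPM (3.21 ± 0.77 SE, adjusted p = 0.0454; adjusted p = 0.522 with the score, at 77.9% of that fold change). Ryr2 lost the call without high fat replicate 2 (adjusted p = 0.133). Ckb, the creatine kinase used by fat cells, was above the normal diet range in all high fat libraries without being called (0.82, adjusted p = 0.167).

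Some called genes were named after their values were seen. Cyp1a1, the oxidase induced through the aryl hydrocarbon receptor, was counted in all 5 normal diet libraries (2.49 ± 0.87 CPM, 59 counts) and had 0 counts in the high fat group. It was thus at least 24.7-fold lower against a floor of 3 counts over the group (adjusted p = 0.0334 in edgeR), though only 4 of the 10 fits that lacked a library kept the call (highest adjusted p = 0.101, without high fat replicate 2). Cnr1, the cannabinoid receptor, had 0 counts on normal diet and 65 counts, or 2.22 ± 1.37 CPM, on high fat diet, at least 18.3-fold higher (adjusted p = 0.0190). S100a13 (1.22, adjusted p = 0.00430), Prelp, a matrix proteoglycan (1.13, adjusted p = 0.00499), Ctsz, a lysosomal protease (1.34, adjusted p = 0.00903), and Egln1, an oxygen sensor (0.95, adjusted p = 0.00903), rose without overlap and with any 1 library left out. Sqstm1, an autophagy receptor, fell from 110 ± 6.85 to 59.7 ± 20.5 CPM (-0.88, adjusted p = 0.0334), and Ptger3, a prostaglandin receptor that inhibits cyclic AMP formation, from 144 ± 62.7 to 61.3 ± 13.6 CPM (-1.23, adjusted p = 0.0434). Both lost the call without high fat replicate 2 (adjusted p = 0.133 and 0.159). With the score the fold changes of S100a13, Prelp, Ctsz and Egln1 were 1.01, 1.19, 1.32 and 0.99 (adjusted p = 0.335, 0.123, 0.209 and 0.143), and those of Sqstm1 and Ptger3 were -0.998 and -1.07 (adjusted p = 0.419 and 0.611). Cyp1a1 and Cnr1 had adjusted p of 0.496 and 0.185 with the score.

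The targeted enzymes were measured in these controls too. Suv420h2 (annotated Kmt5c) fell from 75.3, 39.8, 27.7, 65.7 and 41.1 CPM to 11.5, 7.42, 21.5, 22.7 and 25.2 CPM. The groups did not overlap (-1.50 ± 0.34 SE, adjusted p = 0.0334; -1.63 with the score, adjusted p = 0.307). The call was lost without normal diet replicates 1, 2 or 4 or high fat replicates 1, 2 or 4, with a highest adjusted p of 0.121 without high fat replicate 2. Its mean in the knockout was 17.9 CPM on normal and 10.4 CPM on high fat diet, and tags at the 3′ end need not lie in the deleted part. Suv420h1 (Kmt5b) had -0.42 (adjusted p = 0.387). The mean level of Suv420h1 on normal diet was 42.4 CPM in these controls against 39.5 CPM in the knockout, and on high fat diet 31.7 CPM against 39.1 CPM, and the difference between genotypes was not tested here.

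Several of the called decreases were genes of striated muscle whose fold changes shrank with the score. Jph2, which joins the plasma membrane to the sarcoplasmic reticulum, measured 3.45, 124, 15.6, 88.2 and 9.18 CPM on normal diet and 1.01, 0.53, 6.08, 1.44 and 3.29 CPM on high fat diet. Its levels followed the muscle score, with normal diet replicates 2 and 4 highest and high fat replicate 3 the highest of its group. The fold change of Jph2 was -4.24 (adjusted p = 0.0454), and -1.10 (adjusted p = 0.848) with the score. Casq2, a calcium store protein, went from -3.69 (adjusted p = 0.0334) to -0.23 and Des, the muscle intermediate filament, from -2.40 (adjusted p = 0.0488) to -0.26. Cacnb1, a calcium channel subunit, went from -3.41 (adjusted p = 0.0334) to -1.49 and the kinase gene Sbk2 from -3.05 (adjusted p = 0.0236) to -1.32. Mef2c, a muscle transcription factor, went from -2.03 (adjusted p = 0.0334) to -0.81. Got2, a mitochondrial aminotransferase and not a striated muscle gene as such, went from -1.78 (adjusted p = 0.0255) to -0.89, which kept 50.1%. Both Mef2c and Got2 were named after their values were seen. All 7 lost the call without high fat replicate 2 and without normal diet replicate 2. The highest adjusted p was 0.162 for Casq2, without normal diet replicate 2, and without high fat replicate 2 it was 0.151 for Jph2, 0.162 for Des, 0.118 for Cacnb1, 0.0867 for Sbk2, 0.114 for Mef2c and 0.0971 for Got2. All 20 fast or general and all 13 slow or oxidative muscle genes tested had negative fold changes, with medians of -3.73 and -4.83, and with the score the medians were -0.42, with 6 of 20 positive, and -0.92, with 1 of 13 positive. The entry n-R5-8s1, annotated as 5.8S ribosomal RNA, fell with a fold change of -2.78 (adjusted p = 0.0334; -3.14 with the score; adjusted p = 0.106 without high fat replicate 2). Its reads can come from many copies of the ribosomal RNA genes and it is uncertain.

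The 96 called genes were then compared between the models. Of the 49 increases, 33 kept at least 80% of their fold change with the score, 16 kept 50 to 80% and 0 kept less. Of the 47 decreases, 28 kept at least 80%, 10 kept 50 to 80% and 9 kept less. The median of the increases was 1.22 without and 1.15 with the score, and that of the decreases -1.50 and -1.10. The score model called 0 of the increases in edgeR. Over all genes tested, and not only the 96, DESeq2 with the score called 18 genes higher and 10 lower. The diets did not overlap in CPM for 42 of the 49 increases and 28 of the 47 decreases, counts that the calling itself favours. Of the increases 14, and of the decreases 1, had a mean below 5 CPM.

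**Figure D4:**
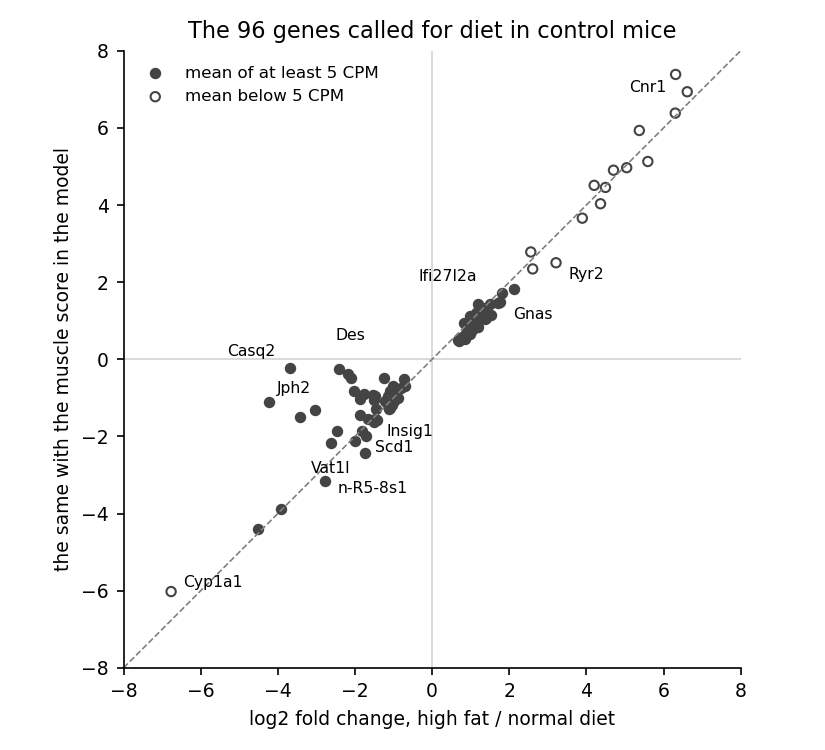
Log2 fold changes, high fat over normal diet, of the 96 called genes without (horizontal) and with (vertical) the muscle score in the model; the dashed line marks equal values, and open circles are genes with a mean below 5 CPM. Scd1, Insig1, Gnas and Ifi27l2a lie near the line, while Casq2 and Des lie near 0 on the vertical axis and Jph2 at -1.10.

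The library that parts diet from muscle score most clearly, high fat replicate 3, was also held out. Without it 251 genes were called. Of the 97 higher ones measured in all libraries, 69 (71.1%) had high fat replicate 3 above every normal diet library, against 27.0% of all 5960 genes with a positive fold change. Of the 153 lower ones, 42 (27.5%) had it below every normal diet library, against 16.7% of all 6114 with a negative fold change. In log2 distance it was nearer to the other high fat libraries for 61 of the 97 (62.9%, the share over all such genes being 62.9%) and for 45 of the 153 (29.4% against 54.2%). Normal diet replicate 1, which had the lowest score of its group, lay below every high fat library for 57 of 85 genes called higher without it (67.1% against 30.5%) and above every high fat library for 46 of 117 called lower (39.3% against 31.7%). In log2 distance it was nearer to the other normal diet libraries for 48 of the 85 (56.5% against 48.0%) and for 40 of the 117 (34.2% against 51.7%). These genes were called with the same libraries that the held-out library was then compared with. Calling thus favours the counts above or below every library of the other diet, unlike the shares over all genes.

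Markers of other cell types were summed for each library. The 6 red blood cell genes tested all had positive fold changes with a median of 0.92 and, with the score, of 0.72, and edgeR called 0. At an unadjusted p below 0.05, 5 of the 6 were higher, against 966 of all 12082 genes tested. The sum of the red blood cell genes was 1375 to 1994 CPM on normal diet and 2334 to 4893 CPM on high fat diet without overlap. Hba-a1, an alpha globin, had 1.02 (adjusted p = 0.0603) and Alas2, the erythroid enzyme of haem synthesis, 1.08 (adjusted p = 0.132). The part of blood in the rise of Alas1 was not tested. The 18 macrophage genes tested, 7 of them positive, had a median of -0.15, or 0.13 with the score, and their sums overlapped at 177 to 388 and 166 to 268 CPM. C1qa, a complement gene of macrophages, had -0.62 (adjusted p = 0.282), and Cd9, a tetraspanin of lipid-associated macrophages and other cells, lay above its normal diet range in all high fat libraries at 3.06 ± 2.40 CPM (2.75, adjusted p = 0.0947). Of 36 matrix and fibroblast genes 26 were negative, with a median of -0.22, or 0.05 with the score, so that the direction of the list flipped. Among them was Dcn, decorin, with -0.74 (adjusted p = 0.118). The sums of 19 endothelial genes overlapped at 561 to 1136 and 576 to 1064 CPM. Schwann cell and nerve genes summed to 225 to 432 and 521 to 801 CPM, most of it from S100b alone (means of 205 and 542 CPM), and 2 of 8 were positive, with S100b the called one, a median of -0.47 and, with the score, of 0.31. Of 16 heat shock genes 12 were positive with a median of 0.45, and Hspa8, a constitutive chaperone, had 0.90 (adjusted p = 0.0686).

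The same diet contrast in the knockout mice shared none of these libraries. The muscle score of the knockout libraries was also lower on high fat diet, at 4.20 ± 3.18 on normal and -0.56 ± 0.24 on high fat diet (mean ± SD of 5 libraries), and the fast and slow muscle lists had median fold changes of -5.59 and -4.67 there. Its part in the values shared by both genotypes was not tested. In the knockout 45 genes were called (0.372%), 22 higher (0.182%) and 23 lower (0.190%). Of the 49 increases in control mice 6 were called in the knockout as well, which were Gnas, Fabp3, Ctsz, S100a13, Prelp and Lgr6, and of the 47 decreases 2 were, Cyp1a1 and Flywch1. Of the increases 40 and of the decreases 42 had the same sign in the knockout, compared with 57.2% of all genes positive and 62.8% of all genes negative in control mice. Fabp3 had 1.35 (adjusted p = 0.0124) in the knockout, Gnas 1.10 (adjusted p = 0.0402), Ucp1 0.92 (adjusted p = 0.0531), Scd1 -0.93 (adjusted p = 0.0752) and Insig1 0.38 (adjusted p = 0.859). Tested directly, the diet effect differed between genotypes for 0 genes in edgeR, with 772 (6.39%) at an unadjusted p below 0.05, and for 12 genes in DESeq2. The median fold change of interferon-stimulated genes was 0.55 in control and -0.25 in knockout mice, and that of red blood cell genes 0.92 and -0.12, differences that were not tested as lists.

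**Figure D5:**
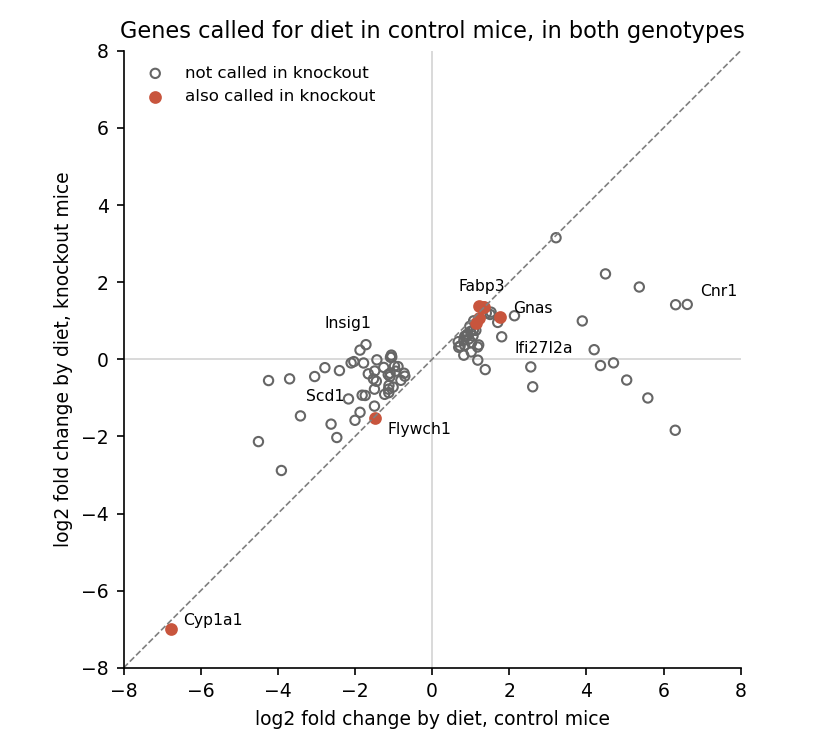
Log2 fold changes by diet of the 96 genes called in control mice, in control (horizontal) and knockout mice (vertical); filled red points were also called in the knockout, and the dashed line marks equal values. The genes were chosen by their control values, and 40 of 49 increases and 42 of 47 decreases share their sign, as do all 8 called in both genotypes.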

How the data were processed

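Brown fat RNA of 10 control libraries was compared between diets, with 10 knockout libraries in the same model. Libraries were 3′ tag libraries primed with oligo-dT, per the labels' protocols. The submitters' processing notes name the builds mm10 and GRCm38 and the tools limma, featureCounts and STAR (2.5.3a), and no source used here states annotation, strand setting or filters. The authors deposited raw counts per gene as whole numbers, without normalisation. Of 13233 genes, 12082 passed filterByExpr (minimum count 10), and 18 rows with gene names turned into dates, with 0.09% of counts, were left out. No libraries of a diet group agreed within sampling noise.

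Counts were fitted with edgeR 4.0.16 in R 4.3.3 (TMM scaling, robust quasi-likelihood test, Benjamini-Hochberg adjustment over all genes). A second model added the muscle score, with a prior count of 1. The score was compared by an exact permutation test over 252 splits. Alternatives used DESeq2 1.42.0, limma 3.58.1, other scalings, filters and left-out libraries. The procedure was tested on simulated data without muscle differences between libraries, so that test cannot show how the models handle muscle carry-over. Gene positions are those of GENCODE mouse release 21 for 155 of 156 named genes.

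The libraries, the 33 gene lists and the rules were chosen with earlier results of these data known. Named genes were 8 core genes, genes called in both models, the 5 highest and 5 lowest called in the first model at a mean of at least 5 CPM without predicted or pseudogene entries, and up to 4 members of each list by p. Not all of these are printed, and others are marked where they appear.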

Additional observations from a re-analysis of the deposited data

Results flagged for a closer look

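Over 144 sets of 5 libraries, from 72 genes and the muscle score in each diet group, leaving out 2 sets with 0 counts throughout (Cyp1a1 on high fat and Cnr1 on normal diet), 1 library stood apart from the other 4 in 10 sets, and chance flags about 1 in 20 sets. High fat replicate 3 stood apart in its muscle score of 8.73, in Acta1 at 1219 CPM and in Myh4, a fast myosin, at 541 CPM. High fat replicate 1 stood apart in Hmgcs1 at 1608 CPM and in Alas2 at 64.3 CPM, and high fat replicate 2 in Ptger3 at 38.2 CPM. On normal diet, replicate 2 stood apart in Cpt1b at 146 CPM and in Cd9 at 0 CPM, replicate 3 in Acat2 at 301 CPM and replicate 4 in Acot8 at 5.40 CPM.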

How the results depend on the processing

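The count of 96 genes was 502 with DESeq2, 27 with limma voom and quality weights, 16 with the 10 control libraries alone, 25 without normal diet replicates 2 and 4 and 34 without the 4 libraries of score above 8, a fit chosen after seeing the data. With 1 library left out it ranged from 21 to 358. The 2 genes called with the score became 0 with the control libraries alone, 28 with DESeq2, 0 with voom and 8 without the 4 libraries, and 0 to 11 with 1 library left out. The 2 called in both models became 0, 24, 0 and 4 in those fits, and also 0 to 11. The 0 genes whose diet effect differed between genotypes became 12 with DESeq2 and 0 to 2 with 1 library left out. The muscle score difference between diets in control was -4.57 (exact p = 0.0556) with slow muscle genes, and -6.26 to -8.97 with 1 library left out.

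Same-numbered libraries did not pair: their deviations correlated from -0.18 to 0.35, and 1 of 5 correlated best with its own number. With the replicate block 20 genes were called, 2 with the score and 1 in both, and an exact sign-flip permutation test over 5 pairs gave p = 0.0625, the smallest that 32 flips allow, for the muscle score difference between diets in control of -7.07.

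The log2 fold change of Cidea reversed to -0.246 with the score, -0.012 with RLE size factors and with DESeq2, -0.041 with voom and -0.134, -0.070, -0.044 and -0.013 without normal diet replicates 2 and 3 and high fat replicates 4 and 5, within a range of -0.134 to 0.249 with 1 library left out. The log2 fold change of Dio2 reversed to -0.147, -0.067, -0.068 and -0.092 with the score, voom, the block and without normal diet replicates 2 and 4, and to -0.109, -0.035 and -0.245 without normal diet replicate 2 and high fat replicates 1 and 5, within -0.245 to 0.255. The cause was not tested. All 96 genes kept their direction in the main fit with the score and in every fit without the score that tested them. Normal diet replicates 4 and 2, at 2398807 and 3615924 counts, limit genes of a few CPM most.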

Other observations

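The remaining gene lists had few or no called members in control mice. Of 10 lipolysis genes 7 had a positive fold change, with a median of 0.42 on the log2 scale, or 0.35 with the muscle score, and edgeR called 0. At an unadjusted p below 0.05, 4 of the 10 were higher, against 966 of all 12082 genes tested. Triglyceride synthesis and lipid droplet genes had 12 of 21 positive (median 0.08), and adipogenic transcription factors and their targets 14 of 23 (0.25). Branched-chain amino acid catabolism had 14 of 21 positive (0.24). Of 18 circadian clock genes 12 were positive (0.20), and Nr1d1, a clock repressor, had -0.99 (edgeR adjusted p = 0.0965). Endoplasmic reticulum stress had 14 of 21 positive (0.07) and creatine and calcium cycling 3 of 6 (0.12). Glucose uptake and glycolysis had 10 of 21 positive (-0.03), adipokines and white fat selective genes 8 of 16 (-0.04, or 0.31 with the score) and antioxidant genes 13 of 25 (0.08, or -0.05 with the score). Ffar4, which senses long chain fatty acids, had 2.33 (edgeR adjusted p = 0.0603). Lymphocyte genes had 2 of 4 positive. Both epithelial genes tested were negative, 1 of them positive with the score, and the 5 epithelial genes in the table summed to 0 to 110 CPM on normal and 0 to 6.38 CPM on high fat diet. Both H4K20 methyltransferase genes tested were negative.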
